A study of Mus musculus with 15 samples.

Results

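The 8 genes described here are Spp1, Runx2, Sp7, Alpl, Ibsp, Bglap, Phex and Dmp1, a hand-picked set of genes of bone-forming cells, out of 35675 genes to which reads could be assigned. Spp1 was chosen by its measured values, namely its lower level with CP, so its values in comparisons that use the CP libraries or the F/R/C libraries are given as a description without a test. The other 7 genes were taken as further members of the bone programme. All 8 had enough counts to enter the test over 19331 genes.

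The libraries were made from mouse embryonic fibroblasts (MEFs) of genotype Tg:Pax7-nGFP/C57BL6;DBA2, which carry a nuclear GFP driven by the promoter of the muscle stem cell gene Pax7. There were 3 MEF lines, each from a single embryo, and each line was cultured in 5 conditions in iMPC medium, the medium used to make induced myogenic progenitor cells. Untreated MEFs received no RNA. The +MyoD cells were transfected 4 times with synthetic mRNA for the muscle transcription factor MyoD in the presence of B18R, a viral protein that binds interferons. The remaining 3 conditions received the same transfections together with F/R/C, a cocktail of forskolin, RepSox and CHIR99210 that raises cyclic AMP and inhibits the TGF-β receptor and GSK3. One of these was given F/R/C alone, one also received the JNK inhibitor SP600125 (SP), and one also received the JAK inhibitor CP690550 (CP). The labels give day 10 for all 15 libraries, whereas the names of the deposited MEF tables read day 0. Untreated MEFs were not transfected, so against MEFs the effect of MyoD cannot be told apart from that of transfection. If the day 0 names hold, time in culture differed as well. Changes described below as with MyoD or after MyoD mRNA are differences between +MyoD cells and MEFs. Poly-A RNA was sequenced in bulk, so a lower level of a gene may come from fewer cells that express it or from less RNA per cell, which cannot be told apart here.

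The estimated counts of a library summed to between 29393872 and 41885769. All 8 fibroblast markers fixed for this purpose, among them Col1a1 and Pdgfra, were at 1 CPM (counts scaled per library to a common total of 1000000) or more in every condition, with a sum of 3184 to 4271 CPM in MEFs and of 12586 to 43395 CPM in +MyoD cells. The share of mitochondrial transcripts was 1.31 to 1.80% in MEF and +MyoD libraries and 2.52 to 5.06% in libraries with F/R/C. The part of this share in the results below was not tested.

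Osteoblasts arise from mesenchymal precursors under the transcription factor Runx2, which acts upstream of a second transcription factor, Sp7 (osterix). Mature osteoblasts produce alkaline phosphatase (Alpl), which frees phosphate for mineral, and a group of acidic matrix proteins that includes osteopontin (Spp1), bone sialoprotein (Ibsp) and Dmp1, and late in differentiation osteocalcin (Bglap). Dmp1 and the membrane endopeptidase Phex are best known from osteocytes, where they restrain the phosphate hormone Fgf23. Osteopontin is not restricted to bone: it is a secreted ligand of integrins and of Cd44 that is also made by macrophages, fibroblasts and injured muscle.

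Spp1, Dmp1 and Ibsp lie in one gene cluster on mouse chromosome 5, where they occupy chr5:104435118-104441050, chr5:104202613-104214102 and chr5:104299171-104311469 of GRCm38, all on the plus strand. The cluster spans 270339 bases from the start of Dspp to the end of Spp1. Its remaining 2 genes were silent or nearly so, with no count for Mepe in any library and at most 13 counts for Dspp. Alpl lies on the minus strand at chr4:137741733-137796384. The sequences below are the 250 bases upstream of an annotated start of 3 members on which the results turn, from the RefSeq promoter table of GRCm38.p6, written in the direction of transcription. They are shown because MyoD binds the E-box and Runx2 its own core motif. Capitals mark every match on either strand to the E-box CANNTG or to the RUNX core TGTGGT, which reads ACCACA on the opposite strand.
Spp1 (chr5:104434861-104435110, plus strand): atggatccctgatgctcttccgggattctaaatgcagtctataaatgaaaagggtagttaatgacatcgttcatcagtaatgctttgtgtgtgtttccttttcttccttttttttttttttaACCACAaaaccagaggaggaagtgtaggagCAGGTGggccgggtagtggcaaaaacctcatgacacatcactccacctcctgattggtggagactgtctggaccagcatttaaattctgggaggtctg
Dmp1 (chr5:104202367-104202616, plus strand): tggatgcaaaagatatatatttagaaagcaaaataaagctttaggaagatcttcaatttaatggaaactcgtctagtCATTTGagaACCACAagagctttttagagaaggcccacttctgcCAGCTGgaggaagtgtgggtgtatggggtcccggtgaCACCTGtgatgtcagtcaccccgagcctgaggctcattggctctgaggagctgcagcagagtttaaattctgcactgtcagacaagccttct
Alpl (chr4:137796385-137796634, minus strand): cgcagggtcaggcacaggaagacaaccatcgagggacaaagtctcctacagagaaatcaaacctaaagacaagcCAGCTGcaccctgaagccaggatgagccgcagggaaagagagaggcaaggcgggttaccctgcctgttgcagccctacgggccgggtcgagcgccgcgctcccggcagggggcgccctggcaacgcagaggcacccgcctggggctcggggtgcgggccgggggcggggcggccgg

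The Spp1 window held 1 E-box, CAGGTG at position -98 from the start, and 1 RUNX core at -128. The Dmp1 window held 3 E-boxes, at -173, -129 and -92, and 1 RUNX core at -164. The Alpl window held a single E-box, CAGCTG at -176, and no RUNX core. Each of these genes had a further annotated start whose window is not printed. That window held 2 E-boxes for Spp1, 5 for Dmp1 and 2 for Alpl, and no RUNX core for any of them. The RUNX matches of Spp1 and Dmp1 therefore depend on the window shown. Over all 32851 promoter windows of the table, 66.2% held an E-box and 14.0% a RUNX core, so an E-box match alone is common. Neither the STAT motif TTCNNNGAA, present in 7.02% of all windows, nor the cyclic AMP response element TGACGTCA, present in 1.55%, matched in the 3 printed windows. Entries were found for 7 of the 8 members, all except Sp7. These matches describe the letters of the windows and are not evidence of binding.

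Spp1 was among the most abundant transcripts of the +MyoD cells and was lower in every other condition. Its level in MEF lines 1, 2 and 3 was 365, 269 and 491 CPM, and it was 5030.5, 6013 and 8828 CPM in the same lines after MyoD mRNA. All 3 +MyoD libraries lay above all MEF libraries, with a mean of 6624 ± 1971 CPM (SD, n = 3) against 375 ± 112 CPM (SD, n = 3). The difference was 17.7-fold (log2 fold change 4.14, SE 0.26, adjusted p = 1.8e-08, edgeR quasi-likelihood test with Benjamini-Hochberg adjustment). Within the lines the ratio was 13.8, 22.4 and 18.0. Per transcript length, Spp1 rose from rank 329 among all genes by mean TPM in MEFs (443 ± 128 TPM, SD, n = 3) to rank 2 in +MyoD cells (8888 ± 2681 TPM, SD, n = 3).

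With F/R/C added to MyoD, Spp1 was at 1361, 1239.7 and 1642 CPM in lines 1 to 3. With SP it was at 1049, 1039.6 and 1339 CPM, and with CP at 527, 598 and 706 CPM. The F/R/C libraries lay below every +MyoD library, the F/R/C and SP libraries overlapped, and the CP libraries lay below every F/R/C and SP library and above every MEF library. The order of the mean levels was therefore +MyoD, F/R/C (1414 ± 206 CPM, SD, n = 3), SP (1142 ± 170.1 CPM, SD, n = 3), CP (610.4 ± 90.3 CPM, SD, n = 3) and MEFs, and only the neighbours F/R/C and SP overlapped in their ranges. Its rank by mean TPM was 70 with F/R/C alone, 89 under SP and 167 under CP.

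**Figure D1:**
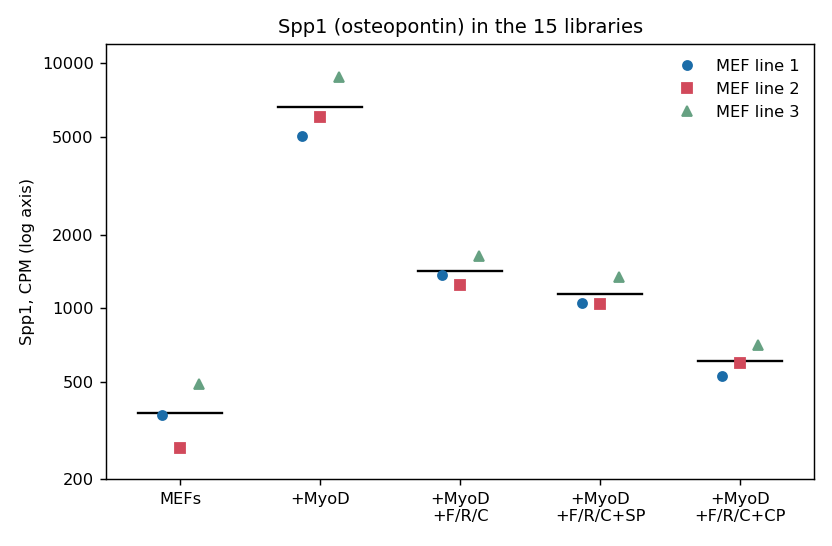
Spp1 in CPM (logarithmic vertical axis) in the 15 libraries, by condition; each symbol is 1 MEF line and each bar the mean of 3 lines. The +MyoD libraries sit between 5030.5 and 8828 CPM, the CP libraries between 527 and 706 CPM, and the MEF libraries between 269 and 491 CPM.

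The value on which Spp1 was selected is its level with CP against F/R/C alone, where the fitted difference was 2.32-fold lower (log2 fold change -1.21). In lines 1, 2 and 3 the CP library held 0.387, 0.482 and 0.430 of the level with F/R/C alone. Because Spp1 was picked on this comparison, its place among other genes here follows from that choice and is only a description. Among the 1969 genes that averaged 100 CPM or more with F/R/C alone, 4 had a lower log2 fold change than Spp1 in this comparison. Among all 19331 tested genes 865 did. These 4 were Serping1, an inhibitor of complement, the matrix protein Tnn, the chemokine Cxcl5 and Pnoc, the precursor of nociceptin. Against SP, the fitted Spp1 level with CP was 1.87-fold lower (log2 fold change -0.90), and with SP against F/R/C it was 1.24-fold lower (log2 fold change -0.31).

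The F/R/C level of Spp1 was 4.68-fold lower than in +MyoD cells (log2 fold change -2.23) and 3.77-fold higher than in MEFs (log2 fold change 1.91). The level with CP was 10.9-fold lower than in +MyoD cells and 1.63-fold higher than in MEFs. None of these values was tested, since they use the libraries on which Spp1 was selected. The SP libraries do not enter that selection. There Spp1 fell 5.80-fold against +MyoD (log2 fold change -2.54, SE 0.24, adjusted p = 6.2e-06) and was 3.05-fold higher than in MEFs (log2 fold change 1.61, SE 0.23, adjusted p = 3.9e-05).

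Most Spp1 counts were assigned to 1 transcript, Spp1-201, which took 81.2 to 92.5% of the counts of the gene over the 15 libraries. A second transcript, Spp1-205, took 5.54 to 17.7%. The share of Spp1-201 was 83.9 to 87.5% in MEFs, 84.3 to 87.0% in +MyoD cells and 81.5 to 90.3% with CP, so these groups overlapped. The division of reads between transcripts is an estimate and was not tested.

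Macrophages and osteoclasts also make osteopontin, so their markers were read beside it. The summed level of 10 macrophage markers was 24.0 to 34.4 CPM in MEFs, 15.8 to 31.7 CPM in +MyoD cells, 14.6 to 19.2 CPM with F/R/C, 17.3 to 18.3 CPM with SP and 19.1 to 32.6 CPM with CP. The ranges of MEFs and +MyoD cells overlapped, and no macrophage marker was at 0 in all libraries of a condition. The summed level of 8 osteoclast markers was higher in +MyoD cells (114 to 241 CPM) than in MEFs (42.9 to 58.1 CPM). Of these markers, 3 were called higher and 0 lower, where 22.8% of all tested genes were called higher and 18% lower. The sum was 68.5 to 101 CPM with F/R/C, 97.0 to 127 CPM with SP and 100.4 to 146 CPM with CP, and the ranges with F/R/C and with CP overlapped. All 8 were at 1 CPM or more on average in +MyoD cells, and 4 of 8 in MEFs and in each cocktail. Dcstamp, a gene needed for osteoclast fusion, was at 0 in all 9 libraries with F/R/C. The part of macrophages and osteoclasts in the Spp1 levels was not tested.

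The other matrix proteins of the set were far less abundant. Dmp1 was at 0.0556, 0 and 0.351 CPM in MEF lines 1 to 3 and at 11.6, 4.66 and 5.40 CPM in the +MyoD libraries. The +MyoD libraries lay above all other 12 libraries. Dmp1 rose against MEFs with a log2 fold change of 5.71 (SE 1.16, adjusted p = 8.1e-04), a value that rests on 14 counts in the 3 MEF libraries and became 7.85 without MEF line 3, which held 12 of them.

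In the cocktails Dmp1 was lower. With F/R/C alone it was at 0.622, 0 and 0.503 CPM, with SP at 0.339, 0.714 and 0.303 CPM and with CP at 0.259, 0.684 and 0.349 CPM. All 3 cocktails thus overlapped with one another and lay below +MyoD. Against +MyoD, Dmp1 fell by 4.25 on the log2 scale with F/R/C (SE 1.05, adjusted p = 0.0086), by 3.98 with SP (SE 1.03, adjusted p = 0.011) and by 4.06 with CP (SE 1.04, adjusted p = 0.0095). The comparison with SP was not called without SP line 1 (adjusted p = 0.051). Spp1 and Dmp1 therefore shared their highest condition, although by mean TPM Dmp1 ranked only 10978 in +MyoD cells (4.48 ± 2.55 TPM, SD, n = 3).

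Ibsp stayed at or below 1.27 CPM in every library. It had 0, 0 and 2 counts in the MEF libraries and 9, 1 and 0 counts in the +MyoD libraries. Lines 1 to 3 had 46, 3 and 7 counts with F/R/C alone, 30, 8 and 42 under SP, and 32, 6 and 3 under CP. The 3 cocktails lay above MEFs in every library, but the lines within a cocktail differed widely. Ibsp was called higher than in MEFs with F/R/C (adjusted p = 0.040) and SP (adjusted p = 0.024) and not with CP (adjusted p = 0.065). Over the summed counts the ratio to MEFs was 23.7 with F/R/C (95% counting interval 6.26 to 200.4), 36.7 with SP (9.84 to 308.5) and 19.3 with CP (5.02 to 165), and these intervals cover counting error only. The F/R/C call was lost with the MEF line as a block (adjusted p = 0.062) and without F/R/C line 1 (0.28), MEF line 1 (0.12), MEF line 2 (0.13), SP line 1 (0.056) or SP line 3 (0.051). The SP call was lost without MEF line 1 (adjusted p = 0.083), MEF line 2 (0.086) or SP line 3 (0.067).

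Bglap, at chr3:88383501-88384464 on the minus strand, has close copies beside it in Bglap2 and Bglap3, so reads may be split among the 3 genes. It had at most 18 counts in any library and 0 counts in 5 of 15, and no comparison called it. In +MyoD cells the 18 counts came from line 3 and the other two lines had none. Bglap2 had no count in any MEF library and 33, 12 and 7 counts in the +MyoD libraries. It was called higher in +MyoD cells (95% interval of the log2 fold change 1.63 to 12.99, adjusted p = 0.037). With a floor of 3 counts over the MEF group, the ratio over the summed counts was 18.3. Such a ratio leaves out the spread between lines and is not a lower bound. With CP, Bglap2 had 27, 20 and 16 counts, a ratio of 19.8 with the same floor. It was also called higher than in MEFs (95% interval of the log2 fold change 1.70 to 13.06, adjusted p = 0.032). With F/R/C it had 0, 0 and 39 counts and with SP 0, 17 and 0, so these groups included libraries without a count. Neither was called against MEFs. Bglap3 had 0 to 26 counts and was not called in any comparison.

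Runx2, at chr17:44495987-44814797 on the minus strand, was present in all conditions at 26.5 to 53.1 CPM. It was at 39.6, 53.1 and 51.6 CPM in MEF lines 1 to 3 and at 33.7, 38.7 and 30.0 CPM in +MyoD cells. Every MEF library lay above every +MyoD library. The log2 fold change was -0.49 (SE 0.18, 95% interval -0.87 to -0.11, adjusted p = 0.034). This fell just short of the size of 0.5 that a call required, so Runx2 was not called. It was called lower with the MEF line as a block (log2 fold change -0.50, adjusted p = 0.029), one of 14 of the 21 alternatives in which it passed.

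In the F/R/C libraries Runx2 was at 42.6, 41.2 and 26.5 CPM, with SP at 41.02, 34.7 and 41.7 CPM and with CP at 31.6, 35.2 and 29.9 CPM. These groups overlapped with one another and with +MyoD. With CP, all 3 libraries lay below the MEF libraries, and Runx2 was 1.49-fold lower (log2 fold change -0.58, SE 0.18, adjusted p = 0.014), a call that was lost without MEF line 2 (adjusted p = 0.058) or MEF line 3 (adjusted p = 0.051). The 13 annotated Runx2 transcripts begin at a distal or a proximal promoter, and the share of counts given to the distal starts was 23.1 to 72.5% over the 15 libraries with overlapping ranges in all conditions.

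Sp7, at chr15:102356606-102367182 on the minus strand, was at 1.14, 0.510 and 0.849 CPM in MEFs and at 6.52, 3.17 and 2.70 CPM in +MyoD cells. The +MyoD libraries lay above all other libraries. Sp7 rose 4.94-fold (log2 fold change 2.30, SE 0.73, adjusted p = 0.017), and the call was lost without +MyoD line 1 (adjusted p = 0.085), MEF line 2 (0.074) or MEF line 3 (0.054). In the F/R/C libraries it was at 1.14, 0.545 and 0.831 CPM, the range of the MEFs, and fell 4.91-fold against +MyoD (log2 fold change -2.29, SE 0.73, adjusted p = 0.034). That call was lost without +MyoD line 1 (adjusted p = 0.14) and without F/R/C line 1 (0.068), line 2 (0.12) or line 3 (0.096).

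With SP, Sp7 was at 0.313, 0.0921 and 0 CPM, or 12, 4 and 0 counts, below every F/R/C library, and with CP it was at 0.330, 0.474 and 0.665 CPM. Against +MyoD, Sp7 was lower with SP (log2 fold change -4.88, SE 0.84, adjusted p = 6.5e-04, and -6.27 without SP line 1) and with CP (log2 fold change -3.07, SE 0.76, adjusted p = 0.0075). The SP libraries were also below MEFs (log2 fold change -2.58, SE 0.79, adjusted p = 0.014), a value that became -4.01 without SP line 1 and lost its call without SP line 2 (adjusted p = 0.0525). The difference between SP and F/R/C alone had a log2 fold change of -2.59 with a 95% interval of -4.27 to -0.90 and did not pass adjustment (adjusted p = 0.65), and its size became -4.00 without SP line 1 (adjusted p = 0.65).

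Alpl was highest in other conditions than Spp1 and Dmp1. It was at 0.195, 0.311 and 0.146 CPM in MEFs and at 0.658, 0.0873 and 0.742 CPM in +MyoD cells, and these groups overlapped (log2 fold change 1.17, 95% interval -0.08 to 2.42, adjusted p = 0.12), although without +MyoD line 2 it was called higher (adjusted p = 0.0070). Adding F/R/C brought it to 4.38, 3.47 and 8.33 CPM, above every MEF and +MyoD library. Alpl rose 10.9-fold with F/R/C against +MyoD (log2 fold change 3.44, SE 0.53, adjusted p = 2.7e-04) and was higher in all 3 lines.

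With SP, Alpl was at 13.3, 9.92 and 14.6 CPM, and with CP at 9.11, 10.1 and 9.22 CPM, in each case above every library with F/R/C alone. The 95% interval of the log2 fold change was 0.25 to 2.20 for SP (value 1.22, adjusted p = 0.72) and -0.16 to 1.78 for CP (value 0.81, adjusted p = 0.71), so neither difference passed adjustment over all genes. SP and CP overlapped (log2 fold change -0.41, 95% interval -1.37 to 0.55, adjusted p = 1). Against MEFs, Alpl was higher in all 3 cocktails, with log2 fold changes of 4.61 for F/R/C alone (adjusted p = 7.0e-06), 5.83 for SP (adjusted p = 1.2e-06) and 5.42 for CP (adjusted p = 2.2e-06). With counts scaled by transcript length these 3 values were 3.70, 4.68 and 4.38, all still called. Against +MyoD it was higher with SP (log2 fold change 4.66, adjusted p = 3.1e-05) and CP (4.25, adjusted p = 4.7e-05). At these levels Alpl remained a minor transcript, at 4.67 ± 2.97 TPM with F/R/C, 8.87 ± 1.28 TPM with SP and 7.24 ± 1.17 TPM with CP (SD, n = 3).

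Phex, at chrX:157162075-157415312 on the minus strand, was at 2.22, 1.53 and 3.13 CPM in MEFs and at 1.504, 2.30 and 2.40 CPM in +MyoD cells. These groups overlapped (log2 fold change -0.15, 95% interval -2.09 to 1.80, adjusted p = 0.92). In the F/R/C libraries it was at 0.0778, 0.446 and 0.394 CPM, with SP at 0.417, 0 and 0 CPM and with CP at 0.637, 0.50 and 0.475 CPM. All 9 libraries with F/R/C thus lay below all 6 without it.

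Against MEFs, Phex fell with F/R/C (log2 fold change -2.89, SE 0.997, adjusted p = 0.024) and with SP (log2 fold change -4.01, SE 1.07, adjusted p = 0.0056), and the value with CP was -2.09 (adjusted p = 0.085). Against +MyoD it fell with SP (log2 fold change -3.86, SE 1.07, adjusted p = 0.016), and the values were -2.74 with F/R/C (adjusted p = 0.062) and -1.94 with CP (adjusted p = 0.16). The F/R/C call against MEFs was lost without F/R/C line 1 (adjusted p = 0.078) or MEF line 3 (adjusted p = 0.072). The size of both SP values rests on the 16 counts of SP line 1, without which they were -9.44 and -9.24, and the SP call against +MyoD was lost when only the 6 libraries compared were fitted (adjusted p = 0.093).

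**Figure D2:**
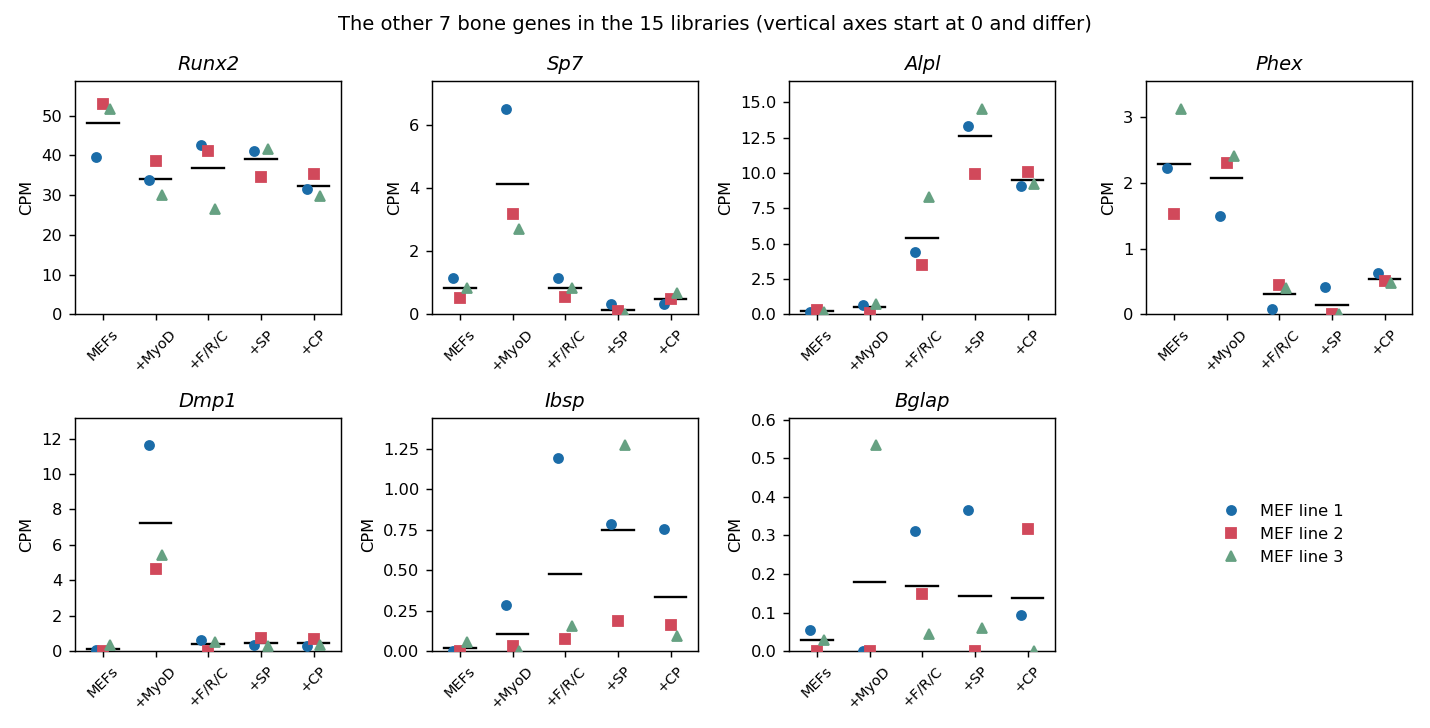
The other 7 bone genes in CPM in the 15 libraries, by condition, with each symbol 1 MEF line and each bar the mean of 3 lines; +F/R/C, +SP and +CP stand for the 3 cocktails given with MyoD, and the vertical axes start at 0 and differ between genes. Dmp1 (4.66 to 11.6 CPM) and Sp7 (2.70 to 6.52 CPM) are highest in +MyoD cells, Alpl is highest with SP and CP, and Phex is below 1 CPM in all libraries with F/R/C.

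Counted over the set, +MyoD against MEFs called 3 of 8 members higher (Spp1, Dmp1 and Sp7), where 22.8% of all tested genes were called higher, and 0 of 8 lower, where 18% were called lower. A call required an adjusted p of at most 0.05 and a log2 fold change over 0.5 in size. F/R/C against +MyoD called 1 of the 7 members other than Spp1 higher (Alpl), with 10.9% of all genes higher, and 2 of 7 lower (Dmp1 and Sp7), with 8.39% of all genes lower. Against MEFs, F/R/C called 2 of 7 higher (Alpl and Ibsp; 26.6% of all genes) and 1 of 7 lower (Phex; 21.6%). These shares cover few genes and are read only against those of all genes.

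SP against MEFs called 3 of 8 members higher (Alpl, Ibsp and Spp1), with 24.5% of all genes higher, and 2 of 8 lower (Phex and Sp7), with 20.1% lower. CP against MEFs called 1 of 7 higher (Alpl), with 24.9% of all genes higher, and 1 of 7 lower (Runx2), with 20.6% lower. SP against +MyoD called 1 of 8 higher (Alpl), with 12% of all genes higher, and 4 of 8 lower (Spp1, Dmp1, Sp7 and Phex), with 8.93% lower. CP against +MyoD called 1 of 7 higher (Alpl), with 12.6% of all genes higher, and 2 of 7 lower (Dmp1 and Sp7), with 9.98% lower.

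None of the 7 members was called between the 3 cocktails, where few genes were called at all. With SP against F/R/C, edgeR called 0% of the 19331 genes higher and 0% lower, although 1280 had an unadjusted p below 0.05. The DESeq2 alternative gave 42 genes up and 13 down there. For CP against F/R/C, 0% were called higher and 0.0362% lower, 1529 genes had an unadjusted p below 0.05, and DESeq2 gave 71 up and 120 down. For CP against SP, 0% were called higher and 0.197% lower, 775 genes had an unadjusted p below 0.05, and DESeq2 gave 5 up and 87 down. DESeq2 called none of the 7 members in these 3 comparisons either.

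**Figure D3:**
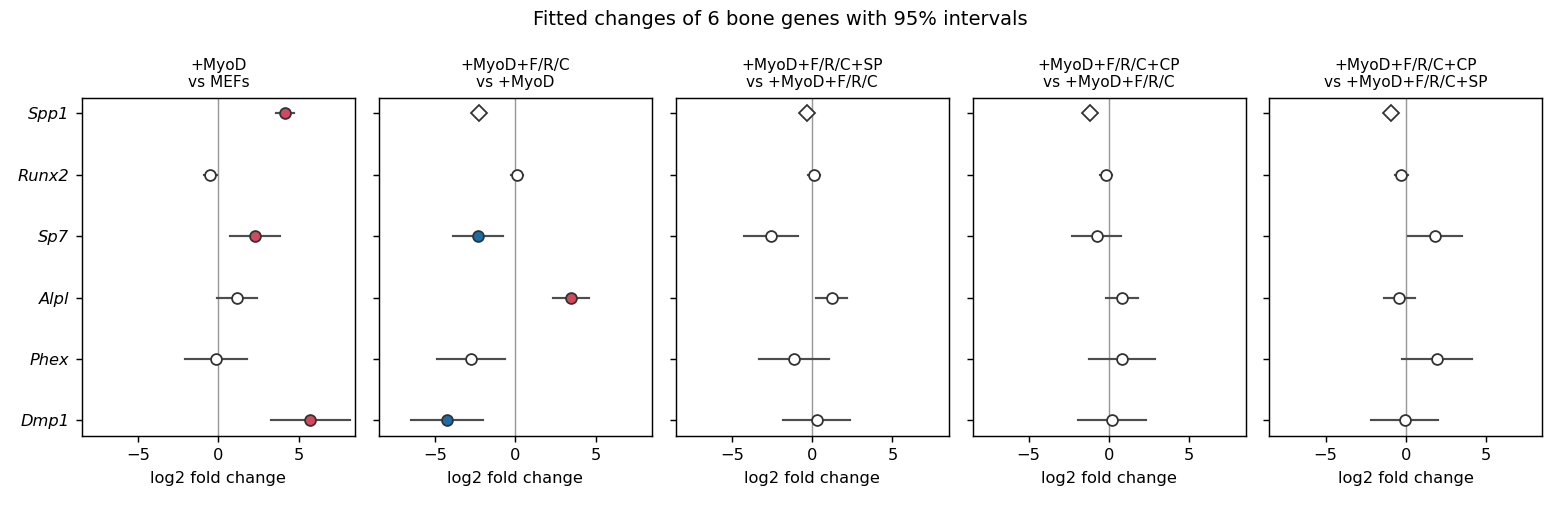
Fitted log2 fold changes of 6 bone genes in 5 comparisons, with 95% intervals as bars; red circles were called higher, blue circles lower, white circles were not called, and white diamonds are Spp1 values with no test. The Spp1 value is 4.14 for +MyoD against MEFs and -1.21 for CP against F/R/C, and the Alpl value is 3.44 for F/R/C against +MyoD.

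Wider lists of bone genes, chosen with earlier results of these data known, were counted in the same fit. Of the 12 bone matrix genes tested, 8 were called higher in +MyoD cells than in MEFs and 0 lower, where 22.8% of all genes were called higher and 18% lower, with a median log2 fold change of 1.85 against 0.12 over all genes. Among them, the cartilage and vessel matrix protein Mgp was at 2026 ± 1064 CPM against 82.2 ± 8.18 CPM (SD, n = 3; log2 fold change 4.62, adjusted p = 1.8e-06). The collagen-binding protein Sparc (osteonectin) was at 4479 ± 1288 CPM against 1071 ± 104 CPM (SD, n = 3; log2 fold change 2.06, adjusted p = 1.8e-07). Several of these genes, Col1a2 included (log2 fold change 2.33, adjusted p = 3.9e-05), are also general fibroblast genes. All 8 fibroblast markers, of which Col1a1 and Col1a2 are also in this list, were called higher as well, with a median of 2.66. For F/R/C against +MyoD, 0 of 12 matrix genes were called higher and 6 lower, where 10.9% of all genes were called higher and 8.39% lower. The median was -0.91 against 0.03 over all genes, and Mgp was at 202.4 ± 102 CPM (SD, n = 3, log2 fold change -3.32, adjusted p = 1.0e-04). Of the 8 fibroblast markers, 4 were called higher in this comparison and 1 lower (median 0.53).

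Of the 9 mineralization genes, 4 were called higher and 0 lower in +MyoD cells against MEFs (median log2 fold change 0.78 against 0.12 over all genes, of which 22.8% were called higher and 18% lower). With F/R/C against +MyoD, 0 were called higher and 5 lower (median -0.56 against 0.03 over all genes, of which 10.9% were called higher and 8.39% lower). Enpp1, which makes the mineralization inhibitor pyrophosphate, rose by a log2 fold change of 2.58 (adjusted p = 3.4e-06) and then fell by 2.50 on the log2 scale (adjusted p = 2.6e-05). Phospho1, a phosphatase of matrix vesicles, rose by a log2 fold change of 2.58 (adjusted p = 3.8e-05), and the pyrophosphate transporter Ank fell by 2.27 on the log2 scale with F/R/C (adjusted p = 5.5e-05). These genes include both promoters and inhibitors of mineral deposition.

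Of the 13 osteoblast transcription factors, 2 were called higher and 3 lower in +MyoD cells against MEFs (median log2 fold change 0.54), beside 22.8% and 18% of all genes, and 2 higher and 2 lower with F/R/C against +MyoD (median -0.03), beside 10.9% and 8.39%. With so few genes, these counts are near the shares of all genes. The AP-1 factor Fosl1 fell by 2.51 on the log2 scale with MyoD (adjusted p = 6.4e-05), and Cbfb, the partner subunit of Runx2, by 0.68 (adjusted p = 0.0036). With F/R/C, Msx2 fell by 2.49 on the log2 scale (adjusted p = 4.8e-04) and Msx1 rose by a log2 fold change of 2.01 (adjusted p = 0.015). The osteoblast gene Dlx5 was not called in either comparison and averaged 0.0943 to 0.521 CPM per condition.

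Of the 13 signals of bone formation and resorption, 8 were called higher and 0 lower in +MyoD cells (median log2 fold change 1.12), beside 22.8% and 18% of all genes, and 5 higher and 2 lower with F/R/C against +MyoD (median 0.73), beside 10.9% and 8.39%. The parathyroid hormone receptor Pth1r rose by a log2 fold change of 3.31 with MyoD (adjusted p = 1.2e-05), as did the Wnt antagonist Sfrp1 by 3.39 (adjusted p = 5.2e-05). Bmp6 rose with F/R/C by a log2 fold change of 2.35 (adjusted p = 6.8e-06), whereas Csf1, a growth factor of macrophages and osteoclasts, fell by 1.80 on the log2 scale (adjusted p = 6.2e-05). Of the 4 osteocyte genes tested, 1 was called higher in +MyoD cells (Fgf23, at a mean of 0.465 CPM) and 1 lower (Cd44), beside 22.8% and 18% of all genes. With F/R/C against +MyoD only Cd44 was called, lower, where 10.9% of all genes were called higher and 8.39% lower. The medians of that list were 0.11 and 0.19, against 0.12 and 0.03 over all genes. With so few genes, these counts are near the shares of all genes.

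Of the 10 receptors of osteopontin, 4 were called higher and 2 lower in +MyoD cells (median log2 fold change 0.24), beside 22.8% and 18% of all genes. With F/R/C against +MyoD 1 was called higher and 6 lower (median -1.48), beside 10.9% and 8.39%. Cd44 was at 1626 ± 187 CPM in MEFs, 649 ± 345 CPM in +MyoD cells, 195 ± 24.9 CPM with F/R/C, 273 ± 38.8 CPM with SP and 207 ± 20.1 CPM with CP (SD, n = 3), and it fell both with MyoD (log2 fold change -1.33, adjusted p = 6.4e-04) and with F/R/C against +MyoD (log2 fold change -1.74, adjusted p = 2.6e-04). The integrin subunit Itgb5 rose by a log2 fold change of 2.61 with MyoD (adjusted p = 1.5e-08) and fell by 1.53 on the log2 scale with F/R/C (adjusted p = 1.0e-05). Between the cocktails, edgeR called 0 of the 60 tested genes of the 6 lists in each of the 3 comparisons, where 4 (SP against F/R/C), 11 (CP against F/R/C) and 5 (CP against SP) had an unadjusted p below 0.05. DESeq2 called 0, 3 and 0 of them. These 3 were the Notch target Hey1 (log2 fold change 2.77, adjusted p = 0.010 by DESeq2 and 0.25 by edgeR), the osteoclast-forming ligand Tnfsf11 (-1.33, adjusted p = 0.0024 by DESeq2 and 0.12 by edgeR) and the proteoglycan Bgn (-0.62, adjusted p = 0.015 by DESeq2 and 0.21 by edgeR).

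**Figure D4:**
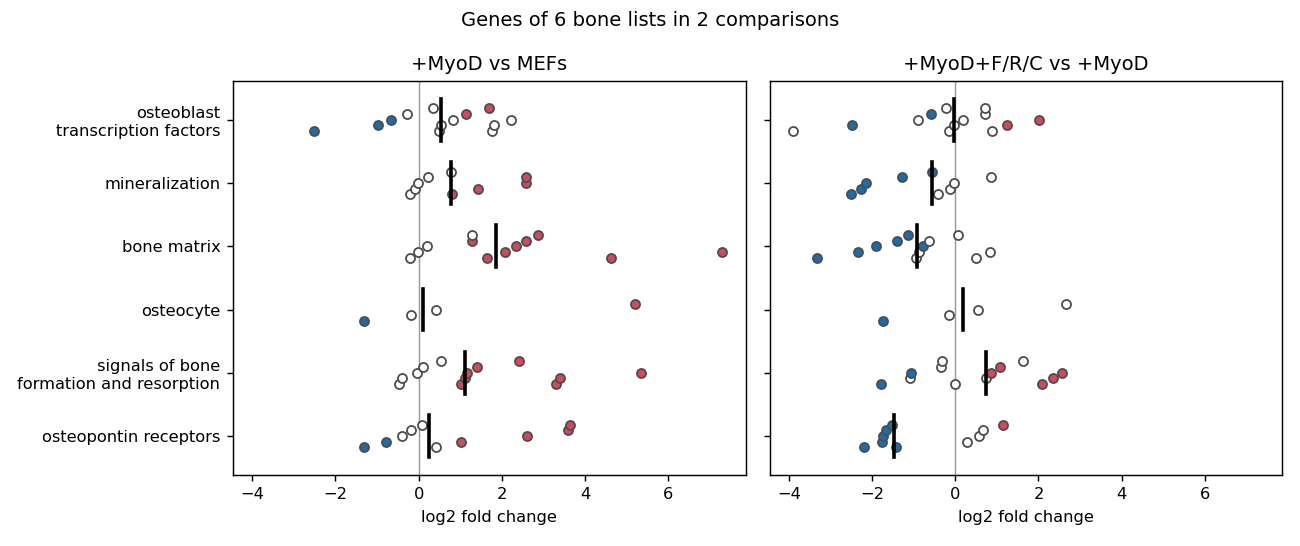
Log2 fold changes of the tested genes of 6 bone lists for +MyoD against MEFs (left) and F/R/C with MyoD against +MyoD (right), where each circle is 1 gene (red called higher, blue lower, white not called) and each vertical bar the list median. The bone matrix median is 1.85 on the left and -0.91 on the right; the matrix gene farthest to the right on the left panel is Bglap2, whose fitted value rests on MEF libraries without a count.

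The sum of 8 chondrocyte markers was 122 to 238 CPM in MEFs, 69.1 to 132 CPM in +MyoD cells and 16.0 to 26.3 CPM over the libraries with F/R/C. Skeletal muscle markers ran the other way, from 67.2 to 91.0 CPM in MEFs through 1853 to 2223 CPM in +MyoD cells to 5130.4 to 9499 CPM with F/R/C. The part of these shifts in the levels of the bone genes was not tested.

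Among the genes whose log2 CPM followed that of Spp1 most closely over the 15 libraries were Extl3, an enzyme of heparan sulphate synthesis (Pearson r = 0.969), Pcdhga10 (0.965), Tmem59 (0.960) and the endothelin-converting enzyme Ece1 (0.956). Among the members, Dmp1 came closest to Spp1 (r = 0.828), followed by Sp7 (r = 0.511), while Runx2 had r = -0.422. Dmp1 averaged 7.23 CPM in +MyoD cells and 0.136 to 0.452 CPM in the other conditions, and Sp7 4.13 CPM against 0.135 to 0.839 CPM. Their r values therefore rest mostly on the +MyoD libraries, where Spp1 was highest too, and add nothing to that shared condition. Alpl was followed most closely by Bex1 (0.983), Clstn2 (0.978) and Gpd1 (0.977), and Dmp1 by Tmem151a (0.925), Timp2 (0.919) and Rbfox2 (0.917). For Sp7 the closest included Prdm16 (0.889) and Tmlhe (0.882), for Phex they were Tmem136 (0.895), Zic5 (0.882) and Ccl9 (0.880), and for Runx2 they were Sgk1 (0.900), Arhgef11 (0.845) and Atxn1l (0.838). These values describe 15 libraries that share conditions and lines, and they mostly follow differences between conditions. For Spp1 they include the CP and F/R/C libraries on which it was selected, so they are a description only. Ibsp and Bglap averaged under 1 CPM and were not compared in this way.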

How the data were processed

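Poly-A RNA of 15 cultures (3 MEF lines in 5 conditions) was sequenced with single-end reads from stranded libraries. Per the labels and methods, the authors cleaned reads with fastp 0.20.0 and quantified transcripts of GRCm38.p6 with kallisto 0.46.1. The deposited tables hold estimated counts per transcript, where a read that fits several transcripts is divided among them, the effective length it used, and TPM values, which the authors' kallisto run scaled to a fixed sum per library. Of 121843 transcripts per table, 121104 matched GENCODE M21 and gave 35675 genes, and the other 739 carried 0.236 to 0.327% of the counts and were left out.

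Before testing, the estimated counts of a gene's transcripts were added up and rounded to whole numbers. Genes were kept with edgeR's filterByExpr (minimum count 10, minimum total 15), and all 15 libraries were fitted by condition with edgeR 4.0.16 (TMM, quasi-likelihood, R 4.3.3, residual df 10, biological coefficient of variation 0.350). P-values are two-sided and adjusted over the 19331 genes tested. CPM are counts divided by TMM-scaled library size. The thresholds, an adjusted p of at most 0.05 and a log2 fold change over 0.5, follow the study's methods. The members, lists and markers were chosen with earlier results of these data known. Named genes were every member, the close copies of Bglap, up to 4 called genes of each list with the smallest p, a few others given as levels and chosen after their values were seen (Col1a1, Pdgfra, Dlx5, Mepe, Dspp), the list genes that DESeq2 called between cocktails, and the 3 genes (5 for Spp1) with the highest Pearson r among those at 1 CPM or more, of which some are not reported here.

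Replicate numbers mark the MEF line in the labels. Deviations from the condition mean correlated between libraries of the same line (mean r 0.074, -0.0038 to 0.237, 30 pairs) more than between lines (mean r -0.037, 60 pairs). Such deviations cancel over the lines of a condition, so the between-line value is tied to the same-line value. For all 15 libraries, the mean correlation with libraries of other conditions was highest for their own line. The fit without the line is the main one and the fit with it an alternative. The other alternatives were RLE size factors, no filter on low counts, DESeq2 1.42.0, counts made from TPM scaled by length, only the libraries compared, each library left out in turn and, chosen after seeing the data, only the 9 libraries with F/R/C. Replicates within a condition differed by far more than counting noise (chi-square per degree of freedom of at least 17.9 in 15 pairs). The fit was also run on simulated counts, drawn with a common spread for all genes and no effect of the line. Since these data differ in both respects, that run does not bear on the calls of low-count genes. Promoter sequences are from RefSeq, and both strands were searched.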

Additional observations from a re-analysis of the deposited data

How the results depend on the processing

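The number of members called lower in +MyoD cells against MEFs was 0 and became 1 (Runx2 in each case) without a filter on low counts, with the MEF line as a replicate block, with counts scaled by transcript length and with only the 6 libraries compared, and it was 0 to 1 when 1 library was left out. The number called lower with F/R/C against +MyoD, which was 2, was 1 to 3 when 1 library was left out and 2 to 3 under the other alternatives. The number called higher in +MyoD against MEFs, which was 3, was 2 to 4 when 1 library was left out and 3 otherwise. The 1 gene called higher with F/R/C against +MyoD and the counts of 0 between the cocktails did not change under any alternative run. The log2 fold change of Spp1 in +MyoD against MEFs was 3.88 to 4.38 and that of Alpl with F/R/C against +MyoD 2.94 to 3.86 over 21 alternatives, all called. The untested Spp1 value for CP against F/R/C was -1.34 to -1.09 over 22. No member's called value changed direction under any alternative run. Of the values given in the text or plotted, 5 did; none of them was called in any fit, and they changed direction only when 1 library was left out, over which they ranged as follows. With SP against F/R/C, Runx2 (log2 fold change 0.09) was -0.10 to 0.21 and Dmp1 (0.28) -0.30 to 0.80. Dmp1 was -0.38 to 0.73 for CP against F/R/C (0.20) and -0.58 to 0.42 for CP against SP (-0.08), and Phex was -0.38 to 0.14 for +MyoD against MEFs (-0.15; -0.73 with counts scaled by length). Phex with F/R/C against +MyoD was called by DESeq2 (adjusted p = 0.00987), with only the 6 libraries compared (0.047) and without SP line 1 (0.0074), line 2 (0.036) or line 3 (0.040). Phex with CP against MEFs was also called by DESeq2 (0.033) and with only the 6 libraries compared (0.0031), and without SP line 1 (0.011) or line 2 (0.047). With CP against +MyoD it was called with only the 6 libraries compared (0.033) and without SP line 1 (0.034). Counts scaled by length lost the Phex calls for F/R/C against MEFs (0.074) and SP against +MyoD (0.074). Ibsp with CP against MEFs was called by DESeq2 (0.032) and without +MyoD line 1 (0.0495) or MEF line 3 (0.049). With the MEF line as a block, the Ibsp call for F/R/C against MEFs was lost, Runx2 was called as above, and no other member's call changed. The shift of the median log2 fold change of all genes between TMM and RLE scaling was at most 0.0185 in any comparison. The cause of these changes was not tested. The depth limits Ibsp, Bglap, Sp7 and Phex, which had 0 to 208 counts per library. It also limits Dmp1 outside +MyoD cells (0 to 31 counts per library) and Alpl in MEFs and +MyoD cells (3 to 25 counts).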
